A study of Mus musculus with 6 samples.

Results

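Translation initiation factor genes were followed in GV oocytes, fully grown but still arrested before meiotic maturation, with the nucleus (germinal vesicle) in place. The members are all genes of the deposited count table whose symbol begins with Eif and a digit of 1 to 6. Genes of the Eif2ak kinases, Eif4enif1 and symbols with -ps (pseudogenes) were left out, which gave 51 of 49315 genes. Of these, 48 passed the filter on low counts and were tested. Rpa1 OcKO oocytes (a conditional knockout of Rpa1 in the oocyte only, n = 3 mice) were compared with Control oocytes (n = 3 mice). All mice were 4 to 5 weeks old and primed with PMSG (pregnant mare serum gonadotropin), and about 20 oocytes without cumulus cells made up each library. The sources used here name neither the strain, nor the promoter that drives the recombinase, nor the alleles of the Control mice. Rpa1 codes for a subunit of the protein complex that coats single-stranded DNA, and the series asks what it does for DNA repair during oogenesis.

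Initiation factors bring the small ribosomal subunit, the initiator tRNA and the mRNA together. eIF2 carries the initiator tRNA and is recharged with GTP by eIF2B, eIF3 is the large scaffold on the small subunit, and the eIF4 factors bind the cap of the mRNA and unwind its leader. eIF1, eIF1A, eIF5 and eIF5B act in start codon choice and subunit joining. Fully grown oocytes are nearly silent in transcription and draw on stored mRNA, so control at the cap, through eIF4E and its partners, is a main control point in this cell. Some initiation factors have paralogues that oocytes favour, such as Eif4e1b.

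Total counts were 36280148 to 44575222 in OcKO libraries and 36612443 to 41402926 in Control libraries. Rpa1 itself stood at 7.76, 4.14 and 6.84 CPM (counts relative to library size, scaled by TMM) in OcKO libraries, against 156, 155 and 140 CPM in Control libraries, so it was low in each library labelled OcKO. All 12 oocyte markers, Gdf9 and Zp3 among them, were present, and their summed level was 32900 to 43350 CPM in OcKO and 36250 to 55170 CPM in Control (CPM by library size). For Gdf9, Bmp15 and Ooep all OcKO libraries lay below all Control libraries (log2 fold changes -0.6, -0.94 and -0.28), and the other oocyte markers overlapped. The 12 granulosa and cumulus markers summed to 77.1 to 104.7 CPM in OcKO and 43.2 to 84.4 CPM in Control, with Foxl2, Has2 and Nr5a1 at 0 counts in all Control libraries and Nr5a1 at 1.69, 2.97 and 1.03 CPM in OcKO libraries. Theca and stroma markers (8) summed to 2.07 to 5.41 CPM in OcKO and 2.31 to 7.40 CPM in Control. Of these, Cyp17a1 stood at 0.457, 0.638 and 0.763 CPM in OcKO libraries and Lum at 0.0685, 0.022 and 0.0985 CPM, and both were at 0 counts in all Control libraries. Dcn and Col1a1 went the other way (log2 fold changes -2.72 and -0.72), while the other tested theca and stroma markers had positive ones. In the granulosa list Fshr, Cyp19a1 and Hsd17b1 had negative log2 fold changes (-0.71, -0.35 and -0.55) and the other tested markers positive ones. Blood and immune markers (8) summed to 1.59 to 10.01 CPM in OcKO and 4.78 to 13.4 CPM in Control. No marker of these 4 lists was called by edgeR, where 0.143% of all tested genes were called. More genes were detected in OcKO libraries (19915 to 22393) than in Control libraries (18330 to 19351), and mitochondrially encoded genes took 0.155% to 0.188% of counts in OcKO and 0.067% to 0.0807% in Control. The part of these differences in the results below was not tested.

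Nearly all initiation factor genes were present, over a wide range of levels per length. In TPM (counts divided by summed exon length, set to the same sum in each library), 24 members averaged over 100 TPM over the 6 libraries, 18 between 10 and 100, 6 between 1 and 10, and 3 under 1. Eif1b and Eif1, whose products act in scanning for the start codon, led with 972 TPM (855 to 1169 over 6 libraries) and 756 TPM (675 to 899). These ranges overlapped, as did those of each pair of neighbours in the order above 1 TPM. Eif2b1, the regulatory alpha subunit of eIF2B, followed with 605 TPM, Eif4a3, a helicase of the eIF4A family that sits in the exon junction complex, with 445 TPM, and Eif6, which keeps free large subunits apart from small ones, with 435 TPM. The place of Eif4a3 rested on the OcKO libraries: it averaged 531 TPM in OcKO and 359 TPM in Control, where Eif6 averaged 385.5 TPM. In contrast, Eif2b5, the catalytic epsilon subunit of the same eIF2B complex, averaged 5.70 TPM (2.68 to 9.38), and its range lay below that of every other eIF2B gene. Of the eIF3 genes, Eif3l had the highest mean (283 TPM), while Eif3f averaged 15.8 TPM.

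**Figure D1:**
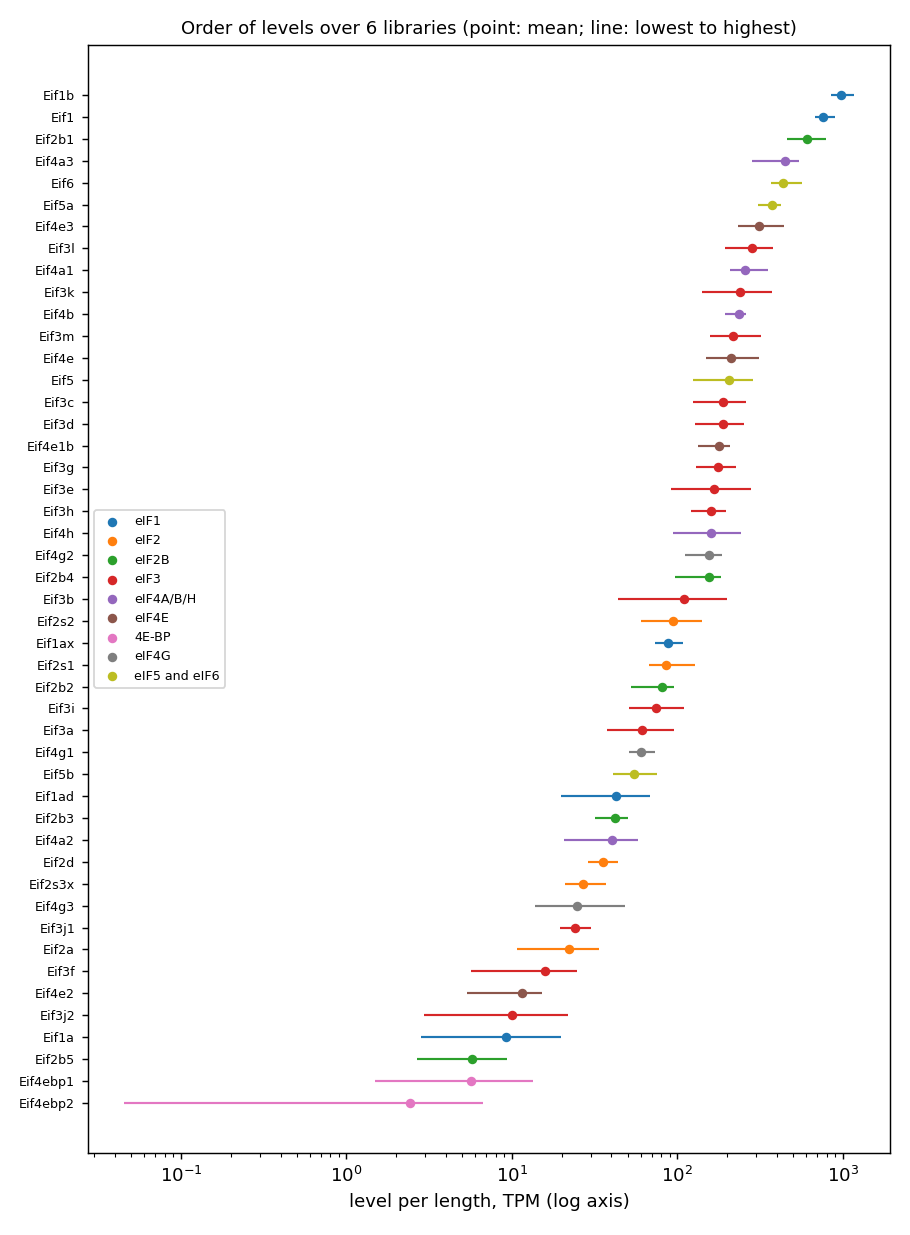
Mean level per length in TPM on a log axis (points) with the lowest to the highest of the 6 libraries (lines), for the 47 members above 1 TPM with no library at 0, coloured by role group. Eif1b and Eif1 stand at the top, and Eif2b5, Eif4ebp1 and Eif4ebp2 at the bottom.

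The members at the bottom were the 4E-BP genes, Eif5a2, Eif2s3y and Eif2c5. The 4E-BP proteins hold eIF4E away from eIF4G, and Eif4ebp1 and Eif4ebp2 averaged 5.64 and 2.43 TPM. Eif4ebp3 had 0 counts in all libraries, at a depth where 3 counts equal 0.0673 to 0.0827 CPM. It shares 67.3% of its exonic bases with Ankhd1 on the same strand, and how reads in those bases were counted is not stated. Eif2c5, also at 0 counts, carries an older symbol of the Argonaute family and is a long intergenic noncoding RNA in GENCODE, so it is a member by its symbol only. Eif2s3y, the Y-linked copy of the gamma subunit of eIF2, had 1 to 6 counts in every library.

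No initiation factor gene passed the test between OcKO and Control. edgeR's quasi-likelihood test called 0 of 48 members at a Benjamini-Hochberg adjusted p under 0.05, where 0.143% of the 16060 tested genes were called, and the smallest adjusted p among members was 0.174. At an unadjusted p under 0.05, 7 of 48 members passed (14.6%), against 11.1% of all tested genes, which is near the background. On the higher side these were Eif3k, Eif3a, Eif3l and Eif4h (4 members, with 5.93% of all genes on that side), and on the lower side Eif4g3, Eif4e3 and Eif2b4 (3 members, with 5.21%). DESeq2 called 6 of 48, namely these without Eif2b4, where it called 6.54% of 17665 genes. Of the 6, 4 were higher (4.33% of all genes) and 2 lower (2.21%). Here limma voom called 0 members and 0.00623% of all genes. The 3 OcKO values lay above the 3 Control values for 6 members (10.7% of all tested genes) and below for 6 (8.67%), 12 without overlap in all (19.4%). Scaled by library size without TMM, 7 members were on the higher and 2 on the lower side at an unadjusted p under 0.05. The share of all tested genes at that cut is not given for this fit. Its median log2 fold change over all tested genes was 0.18, against 0.01 with TMM, so these counts have no background beside them. In pooled oocytes, fewer oocytes with a transcript and less of it in each oocyte cannot be told apart.

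Of the 48 members, 33 had a positive log2 fold change (68.8%), with a median of 0.14, beside 50.8% and a median of 0.01 over all tested genes. The gap between these medians depended on the filter on low counts. It was turned round in both fits without that filter, by DESeq2 (members 0.14, all genes 0.18) and by edgeR (members 0.11, all genes 0.15). With the filter kept and DESeq2 size factors in edgeR, the medians were 0.16 for members and 0.03 for all genes. With library size alone the medians were 0.32 for members and 0.18 for all genes. Without OcKO replicate 2, 28 members were positive and 20 negative. As a share of all counts, members took 0.891%, 0.874% and 0.896% in OcKO libraries, against 0.761%, 0.722% and 0.776% in Control libraries. The OcKO shares lay above all Control shares, but they are not scaled by TMM, whose factors were 1.02 to 1.12 in OcKO and 0.917 to 0.963 in Control. Summed after TMM scaling, members held 8588, 8569 and 7998 CPM in OcKO libraries, against 7913, 7883 and 8186 CPM in Control libraries. On that scale the groups overlapped, with OcKO replicate 3 below Control replicate 3.

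**Figure D2:**
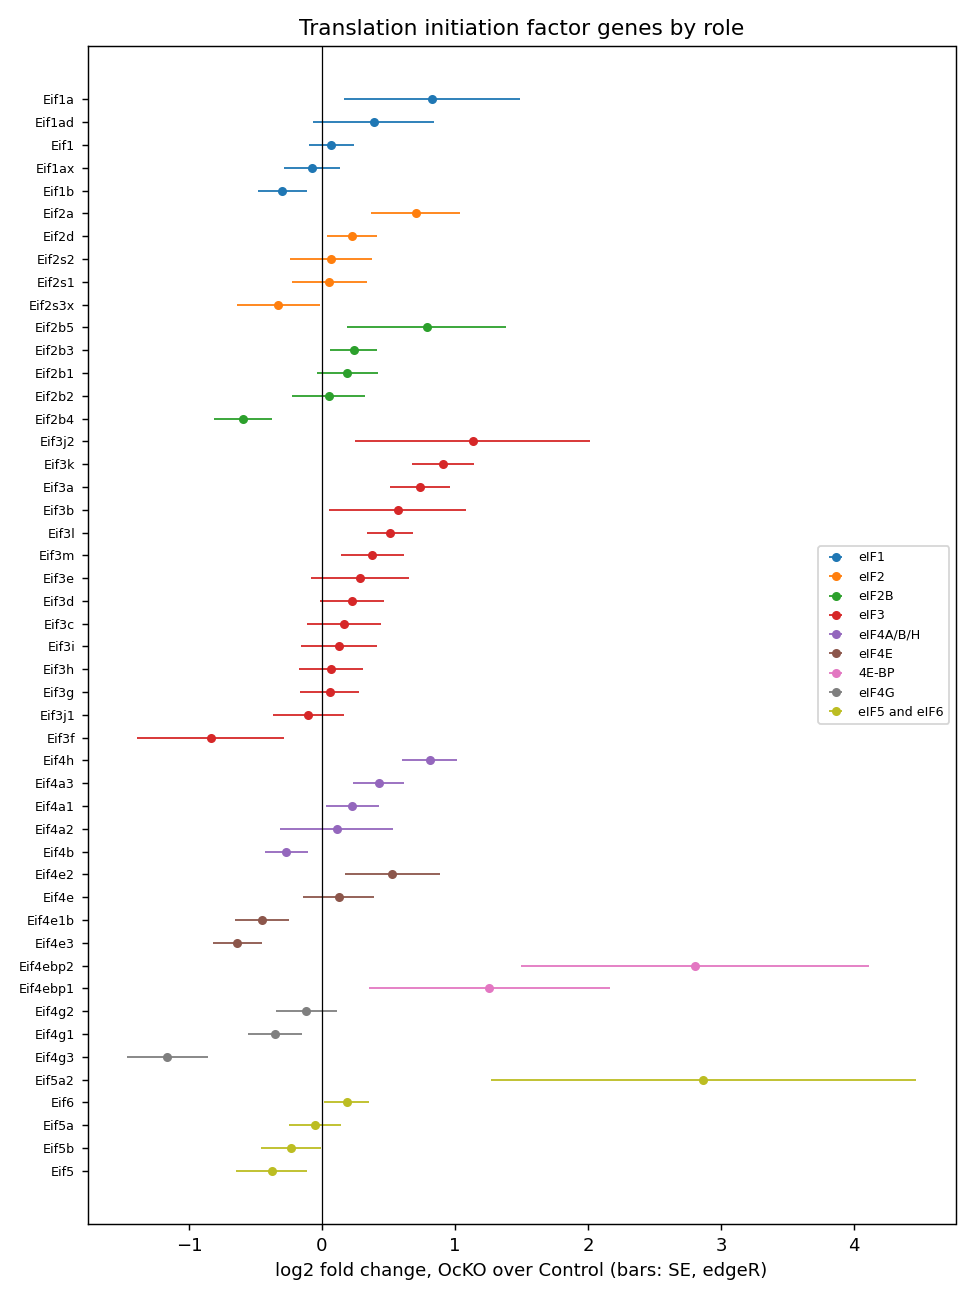
Log2 fold change of OcKO over Control (x axis) with its standard error from edgeR (bars) for the 48 tested members, one row per gene and coloured by role group. The 14 eIF3 genes lie mostly right of 0, from -0.84 to 1.13, and the 3 eIF4G genes lie left of 0.

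In the eIF3 group the log2 fold change was positive for 12 and negative for 2 of the 14 genes (median 0.26), and without OcKO replicate 3 for 9 and 5. The eIF2 and eIF2B genes, with Eif2a and Eif2d counted among them though these encode no eIF2 subunit, had 8 positive and 2 negative (median 0.13). The eIF4 genes, with the scarce 4E-BP genes counted among them, had 8 and 6 (median 0.12). Without OcKO replicate 2 the eIF2 and eIF2B genes had 5 and 5, and the eIF4 genes 6 and 8. With a minimum of 5 CPM in 3 libraries the eIF4 genes had 6 and 6. Whether these groups differ from each other or from other genes was not tested. The median standard error of a member was 0.25 for eIF3, 0.28 for eIF2 with eIF2B and 0.22 for eIF4. At an unadjusted p under 0.05, 3 eIF3 genes were higher and 0 lower, 0 eIF2 or eIF2B genes were higher and 1 lower, and 1 eIF4 gene was higher and 2 lower, where 5.93% of all tested genes were higher and 5.21% lower.

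Among the eIF3 genes, Eif3k (ENSMUSG00000053565, chromosome 7, 28971372 to 28981864, minus strand, GRCm38) had the smallest p. It stood at 315, 207 and 321 CPM in OcKO libraries, against 129, 177 and 143 CPM in Control libraries. All OcKO libraries lay above all Control libraries, with OcKO replicate 2 nearest to them. The log2 fold change was 0.91 (standard error 0.23, adjusted p = 0.175 by edgeR), and the lowest adjusted p over the fits without 1 library was 0.197. Eif3l, whose product pairs with that of Eif3k at the edge of the complex, stood at 231, 219 and 185 CPM in OcKO, against 164, 140 and 142 CPM in Control. Here too the groups did not overlap (log2 fold change 0.51, standard error 0.17, adjusted p = 0.308 by edgeR). Eif3a, the largest subunit and core scaffold, stood at 159, 107 and 132 CPM in OcKO, against 93.6, 76.4 and 68.6 CPM in Control. The OcKO libraries again lay above, with a log2 fold change of 0.74 (standard error 0.22, adjusted p = 0.260 by edgeR).

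The other 11 eIF3 genes overlapped between the groups. Eif3b, a core subunit with an RNA recognition motif, varied most among the abundant ones: it stood at 178, 48.4 and 212 CPM in OcKO, against 134, 93.1 and 68.7 CPM in Control. OcKO replicate 2 was the lowest of all 6 libraries and OcKO replicate 3 the highest. Eif3e, another eIF3 subunit, ran the other way within OcKO, at 82.3, 142 and 59.1 CPM, against 89.3, 53.6 and 89.6 CPM in Control. The 2 genes with negative log2 fold changes were Eif3f (-0.84, standard error 0.55) and Eif3j1 (-0.10, standard error 0.27). Eif3j1 and Eif3j2 encode near-identical products, and 90.8% of the 50-base stretches of Eif3j2 transcripts occur in Eif3j1, so counting could split their reads. Eif3j2 stood at 12.8, 17.2 and 2.51 CPM in OcKO, against 9.60, 2.66 and 2.54 CPM in Control.

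The higher-side members had the following sequence before their RefSeq start (GRCm38.p6), shown 5′ to 3′ and without bases that any annotated exon covers; capitals mark CACGTG and GGGCGG or its reverse complement CCGCCC. These are shown because the 4 genes had the smallest p among those with positive log2 fold changes. CACGTG is the E-box that MYC and USF proteins can bind, and it reads the same on both strands. The Eif4h stretch ends 81 bases before the RefSeq start, since the exons of the deposited annotation begin there, and the others end at the start.
Eif3k, chr7:28981889-28982049, minus strand: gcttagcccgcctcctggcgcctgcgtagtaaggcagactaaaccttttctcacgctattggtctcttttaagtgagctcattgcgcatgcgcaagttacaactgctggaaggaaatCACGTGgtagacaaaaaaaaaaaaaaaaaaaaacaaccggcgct
Eif4h, chr5:134639491-134639659, minus strand: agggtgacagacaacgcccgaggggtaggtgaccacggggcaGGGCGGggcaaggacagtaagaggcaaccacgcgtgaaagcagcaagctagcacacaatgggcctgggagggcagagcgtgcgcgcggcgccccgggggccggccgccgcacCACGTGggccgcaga
Eif3a, chr19:60790694-60790943, minus strand: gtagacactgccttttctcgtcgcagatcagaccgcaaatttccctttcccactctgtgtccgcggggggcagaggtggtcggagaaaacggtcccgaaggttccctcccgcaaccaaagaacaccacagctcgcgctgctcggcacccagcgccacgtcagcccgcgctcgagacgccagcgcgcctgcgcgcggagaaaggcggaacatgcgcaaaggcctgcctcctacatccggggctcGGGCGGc
Eif3l, chr15:79074973-79075222, plus strand: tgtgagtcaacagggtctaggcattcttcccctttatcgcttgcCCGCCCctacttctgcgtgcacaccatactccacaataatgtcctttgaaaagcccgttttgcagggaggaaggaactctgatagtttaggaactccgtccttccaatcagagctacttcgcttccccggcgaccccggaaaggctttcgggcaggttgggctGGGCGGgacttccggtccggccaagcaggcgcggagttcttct

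CACGTG occurred in the stretches of Eif3k and Eif4h and not in those of Eif3a and Eif3l. Of the 51 members, 39 matched the RefSeq promoter table by symbol, with 48 starts. In the 250 bases before the start, CACGTG was in 22.9% of member starts, against 6.02% of the 32851 starts of all genes, and GGGCGG on either strand in 66.7%, against 32.7%. Of the tested members with CACGTG before any start, 5 had positive and 4 negative log2 fold changes (median 0.12). Of those without it, 20 had positive and 8 negative ones (median 0.14). Several starts of 1 gene can overlap, and the starts used in oocytes were not measured here.

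In the eIF4 group, 4 of 5 genes of the eIF4A family and its stimulators had positive log2 fold changes and 0 of 3 scaffold genes did. The 4 include Eif4a3, of the exon junction complex, and Eif4a2, whose log2 fold change was 0.11 (standard error 0.42). Eif4h (ENSMUSG00000040731, chromosome 5, 134619721 to 134639490, minus strand), whose product stimulates the helicase eIF4A, stood at 432, 325 and 371 CPM in OcKO libraries, against 177, 207 and 259 CPM in Control libraries. The groups did not overlap, and the log2 fold change was 0.81 (standard error 0.21, adjusted p = 0.174 by edgeR). Eif4a3 stood at 373, 357 and 362 CPM in OcKO, against 247, 228 and 337 CPM in Control. The OcKO libraries were close to each other and lay above, with Control replicate 3 close behind (log2 fold change 0.43, standard error 0.19, adjusted p = 0.479 by edgeR). Eif4a1, the main eIF4A helicase, had a log2 fold change of 0.23 (standard error 0.20), and 24.2% of its 50-base stretches occur in Eif4a-ps4, a processed pseudogene with 3927 counts in all. Eif4b, which like Eif4h stimulates the helicase, stood at 311, 246 and 284 CPM in OcKO, against 339, 320 and 353 CPM in Control. Its OcKO libraries lay below all Control libraries (log2 fold change -0.27, standard error 0.16, adjusted p = 0.633 by edgeR).

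All 3 eIF4G genes had negative log2 fold changes. The products of Eif4g1 and Eif4g3 bridge the cap complex and eIF3. Eif4g3 (ENSMUSG00000028760, chromosome 4, 137993022 to 138208508, plus strand) stood at 49.2, 58.9 and 67.7 CPM in OcKO libraries, against 182, 125 and 85.3 CPM in Control libraries. OcKO lay below Control in all libraries, with Control replicate 1 highest (log2 fold change -1.16, standard error 0.30, adjusted p = 0.188 by edgeR). Its log2 fold change lay between -1.37 and -0.85 over the fits without 1 library. Eif4g1, the main scaffold, stood at 119, 127 and 145 CPM in OcKO, against 140, 200 and 159 CPM in Control, and OcKO replicate 3 overlapped Control replicate 1 (log2 fold change -0.35, standard error 0.20). Eif4g2, a scaffold that lacks the eIF4E binding site, stood at 610, 571 and 358 CPM in OcKO, against 552, 506 and 614 CPM in Control. The groups overlapped, with OcKO replicate 3 below all Control libraries, and its log2 fold change of -0.12 was 0.04 with library size alone. The ratio of Eif4g3 to Eif4g1 within a library, on the TPM scale, was 0.270, 0.304 and 0.304 in OcKO, against 0.850, 0.408 and 0.351 in Control. OcKO lay below Control in all libraries (exact two-sided permutation test, p = 0.1, the smallest that 3 against 3 libraries allow). This ratio was chosen after the values of Eif4g3 were seen, so its p adds no separate support.

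**Figure D3:**
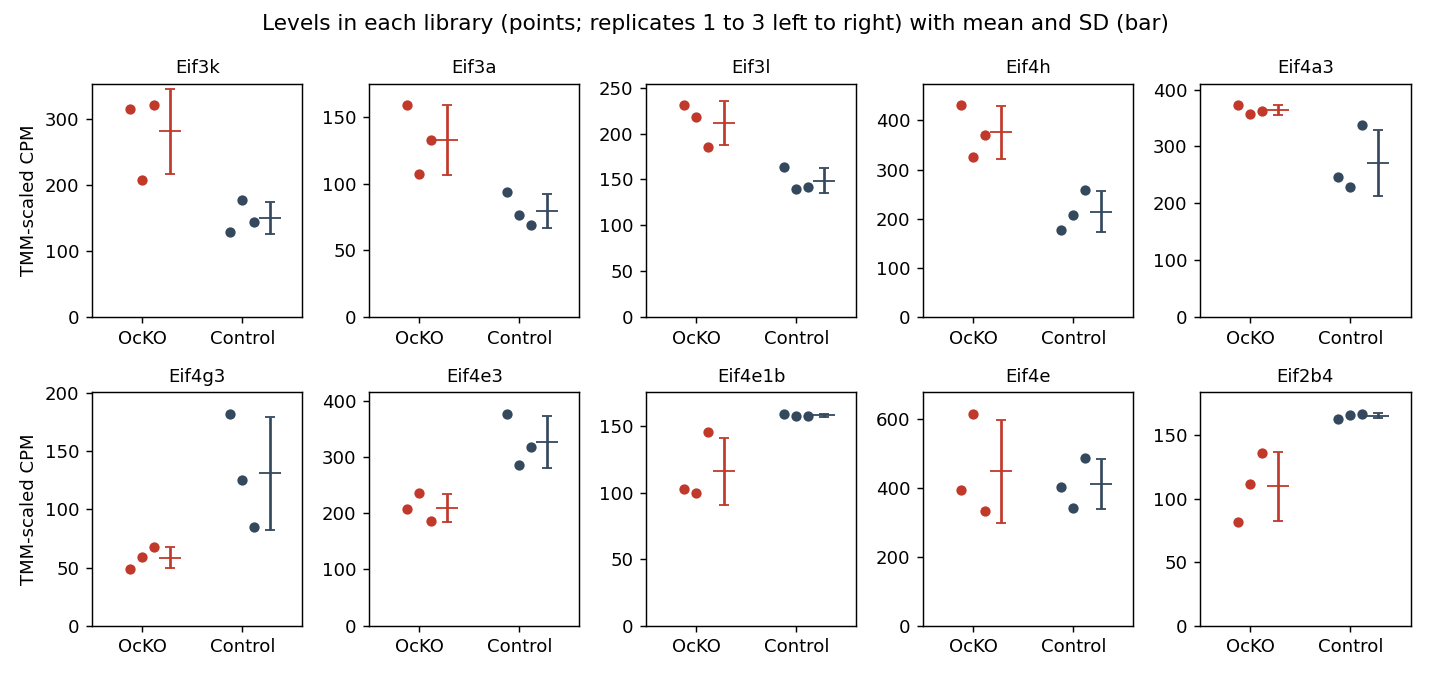
TMM-scaled CPM in each library (points, replicates 1 to 3 from left to right) with mean and SD (bar) for 10 members, OcKO in red and Control in dark blue. For every gene shown except Eif4e the groups do not overlap, and OcKO replicate 2 stands at 614 CPM for Eif4e, above all other libraries. The 10 genes are a selection and do not stand for all members. Of the 48 tested members, 6 lay above and 6 below without overlap, against 10.7% and 8.67% of all tested genes.

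The 4 cap-binding genes shared no direction: Eif4e3 and Eif4e1b had negative and Eif4e2 and Eif4e positive log2 fold changes. Eif4e, the common cap-binding protein, stood at 394, 614 and 332 CPM in OcKO libraries, against 402, 341 and 486 CPM in Control libraries. The groups overlapped, and OcKO replicate 2 was the highest of all (log2 fold change 0.12, standard error 0.27). Without that library the log2 fold change was -0.14. Eif4e1b (ENSMUSG00000074895, chromosome 13, 54783998 to 54788459, plus strand), which in Xenopus oocytes sits in a complex that represses stored mRNA, stood at 103, 99.4 and 145 CPM in OcKO, against 159, 157 and 158 CPM in Control. The Control libraries were nearly equal and all OcKO libraries lay below them, by a log2 fold change of -0.45 (standard error 0.20, adjusted p = 0.482 by edgeR). Over the fits without 1 library it lay between -0.64 and -0.31.

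Eif4e3 (ENSMUSG00000093661, chromosome 6, 99625135 to 99666771, minus strand), a more distant cap-binding paralogue, had the smallest p of the eIF4E genes. It stood at 208, 236 and 186 CPM in OcKO libraries, against 377, 285 and 317 CPM in Control libraries, with no overlap (log2 fold change -0.64, standard error 0.18, adjusted p = 0.234 by edgeR). Of its exonic bases, 14.8% are shared with Gm20696 on the same strand, a gene with 430 counts in all. Eif4e2, whose product competes for the cap and represses translation, stood at 32.6, 37.7 and 32.3 CPM in OcKO, against 24.3, 32.7 and 14.1 CPM in Control, and the groups overlapped at Control replicate 2.

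Per length, the ranges of Eif4e3 and Eif4e1b over the 6 libraries overlapped that of Eif4e. For Eif4e3 this rested on the OcKO libraries, where it stood at 257, 284 and 233 TPM, against 204, 309.5 and 174 TPM for Eif4e. In Control libraries Eif4e3 stood at 441, 299 and 358 TPM, above Eif4e at 197, 149 and 230 TPM, with no overlap. Over the 6 libraries Eif4e3 averaged 312 TPM, Eif4e 211 TPM and Eif4e1b 178 TPM, while Eif4e2 averaged 11.5 TPM. The range of Eif4e2 lay below those of the other 3. The ratio of Eif4e1b to Eif4e within a library, which does not depend on scaling between libraries, was 0.696, 0.431 and 1.16 in OcKO, against 1.05, 1.23 and 0.863 in Control. OcKO replicate 3 lay among the Control libraries, and the groups were not told apart (log2 difference -0.56, exact two-sided permutation test p = 0.3). The difference was -0.21 without OcKO replicate 2. The ratio of Eif4e3 to Eif4e was 1.26, 0.917 and 1.34 in OcKO, against 2.24, 2.00 and 1.56 in Control. These groups did not overlap (exact two-sided permutation test, p = 0.1). In all 4 such ratios were computed, 3 of them (not that of Eif4e1b to Eif4e) chosen after the values were seen, and the one not given above, Eif4g3 to Eif4g2, had p = 0.2 by the same exact permutation test.

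The 4E-BP genes were scarce and uneven. Eif4ebp1 stood at 5.66, 2.20 and 9.33 CPM in OcKO libraries, against 4.63, 1.40 and 1.15 CPM in Control libraries. Eif4ebp2 stood at 2.90, 0.726 and 3.79 CPM in OcKO, against 0.0276, 0.738 and 0.288 CPM in Control. In both genes OcKO replicates 1 and 3 held the highest levels and OcKO replicate 2 lay among the Control libraries, and the log2 fold changes of 1.26 and 2.80 carried standard errors of 0.90 and 1.31. Eif5a2, a scarce paralogue of Eif5a, was also highest in OcKO replicates 3 and 1, at 4.25, 0.682 and 5.64 CPM in OcKO, against 0.965, 0.475 and 0 CPM in Control.

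The eIF2 genes, through which stress kinases slow initiation, were close between the groups. Eif2s1, the alpha subunit that those kinases phosphorylate, stood at 82.9, 144 and 73.3 CPM in OcKO libraries, against 88.8, 102 and 98.1 CPM in Control libraries. Eif2s2, the beta subunit, stood at 188, 315 and 155 CPM in OcKO, against 230, 155 and 243 CPM in Control. For both genes OcKO replicate 2 was the highest of all libraries. The other OcKO libraries lay below all Control libraries for Eif2s1, and for Eif2s2 replicate 1 lay within the Control range and replicate 3 at its lower end. The log2 fold changes were 0.05 (standard error 0.28) and 0.07 (standard error 0.31), and without OcKO replicate 2 they were -0.27 and -0.25. Eif2s3x, the X-linked gamma subunit, stood at 28.7, 32.2 and 32.2 CPM in OcKO, against 27.1, 53.4 and 36.3 CPM in Control. The OcKO libraries were close together inside the wider Control range (log2 fold change -0.33, standard error 0.31), and 34.6% of the 50-base stretches of Eif2s3x occur in the processed pseudogene Gm2223.

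Eif2a and Eif2d encode factors that are not eIF2 subunits but can deliver initiator tRNA in other ways. Eif2a stood at 63.9, 67.9 and 36.0 CPM in OcKO libraries, against 37.0, 25.0 and 41.0 CPM in Control libraries, and OcKO replicate 3 lay among the Control libraries (log2 fold change 0.70, standard error 0.33, adjusted p = 0.506 by edgeR). Eif2d stood at 96.3, 87.2 and 102.7 CPM in OcKO, against 78.6, 91.2 and 75.2 CPM in Control, with an overlap at OcKO replicate 2 and Control replicate 2.

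Of the eIF2B genes, 4 had positive and 1 a negative log2 fold change. Eif2b4 (ENSMUSG00000029145, chromosome 5, 31187558 to 31193430, minus strand), the delta subunit, stood at 81.4, 112 and 136 CPM in OcKO libraries, against 163, 166 and 167 CPM in Control libraries. The Control libraries were nearly equal and lay above all OcKO libraries (log2 fold change -0.59, standard error 0.22, adjusted p = 0.369 by edgeR). Its exons overlap those of Snx17 on the opposite strand over 204 bases, and the strand setting of the counting is not stated. Eif2b3, the gamma subunit, stood at 105, 103 and 93.6 CPM in OcKO, against 92.7, 78.7 and 83.9 CPM in Control, so its OcKO libraries lay just above (log2 fold change 0.24, standard error 0.18, adjusted p = 0.718 by edgeR). Eif2b1 stood at 551, 679 and 459 CPM in OcKO, against 410, 449 and 621 CPM in Control, and the groups overlapped. Eif2b2 and Eif2b5 had log2 fold changes of 0.05 (standard error 0.27) and 0.79 (standard error 0.60).

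Genes of start codon choice and subunit joining, with Eif5a and Eif6 placed beside them by symbol only, showed no common direction. Eif1b stood at 333, 337 and 336 CPM in OcKO libraries, against 398, 500 and 338 CPM in Control libraries, so OcKO lay below by a narrow margin at Control replicate 3 (log2 fold change -0.30, standard error 0.18, adjusted p = 0.645 by edgeR). Eif1 and the X-linked eIF1A gene Eif1ax had log2 fold changes of 0.07 and -0.075. The scarcer Eif1a stood at 18.2, 8.40 and 7.36 CPM in OcKO, against 2.76, 9.78 and 6.66 CPM in Control, and it shares short stretches with 20 other genes. Eif5, which makes eIF2 hydrolyse its GTP, stood at 292, 166 and 284 CPM in OcKO, against 397, 300 and 268 CPM in Control, with OcKO replicate 2 lowest (log2 fold change -0.38, standard error 0.27). Eif6 stood at 419, 362 and 486 CPM in OcKO, against 382, 384 and 349 CPM in Control, and the groups overlapped (log2 fold change 0.18, standard error 0.17). Eif5a and Eif5b had log2 fold changes of -0.05 and -0.23.

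**Figure D4:**
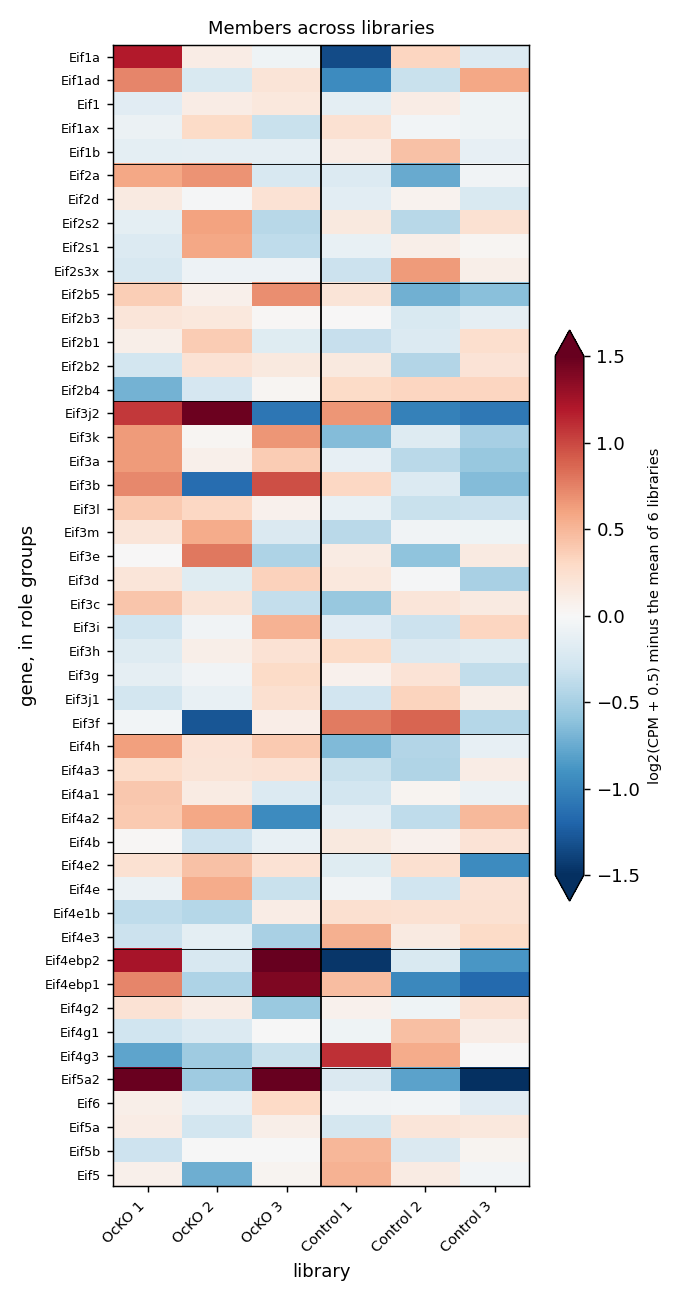
Log2(CPM + 0.5) of each tested member minus its mean over the 6 libraries (colour; red above, blue below), with OcKO libraries left of the black line and Control libraries right of it, and thin lines between role groups. OcKO 2 stands apart from both other OcKO libraries by at least 1.5 times, upward in 4 members and downward in 7.

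Within a group the members varied about as much in OcKO as in Control. The highest library was at least 1.5 times the lowest for 24 of 48 members in OcKO and for 23 in Control. OcKO replicate 2 stood apart from both other OcKO libraries by at least 1.5 times in 11 members. It was higher for Eif2s1, Eif2s2, Eif3e and Eif4e, and lower for Eif3b, Eif3f, Eif3k, Eif4ebp1, Eif4ebp2, Eif5 and Eif5a2. These are 8.33% and 14.6% of the members, against 13.7% and 12.8% of all tested genes. Control replicate 3 was the highest library for 3 members (6.25%), against 12.9% of all tested genes.

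Other genes of translation gave 0 calls by edgeR, where only 0.143% of the 16060 tested genes were called. Of 18 tested partners outside the symbol rule, 1 was higher and 2 lower at an unadjusted p under 0.05 (16.7%, against 11.1% of all tested genes). Pabpc1, the common cytoplasmic poly(A)-binding protein, stood at 40.8, 24.2 and 73.8 CPM in OcKO libraries, against 3.70, 16.3 and 14.0 CPM in Control libraries (log2 fold change 2.03, standard error 0.64, adjusted p = 0.274 by edgeR). Pabpc1l, the poly(A)-binding protein of oocytes, was chosen after its values were seen. It stood at 419, 255 and 321 CPM in OcKO, against 449, 542 and 511 CPM in Control (log2 fold change -0.60, standard error 0.22, adjusted p = 0.351 by edgeR). Neither gene's groups overlapped, and they lay on opposite sides. Paip2b, the other lower gene at the unadjusted cut, did not overlap either (log2 fold change -0.49, standard error 0.16). Pabpc4 and Pabpn1l, from the same list, overlapped (log2 fold changes -0.38 and 0.26), so the chosen pair does not stand for the list.

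Of 15 partners of mRNA repression at the cap, 2 were lower and 0 higher at an unadjusted p under 0.05 (13.3%, against 11.1% of all tested genes). Lsm14a, an mRNA-binding protein of repressed complexes, stood at 76.0, 99.2 and 77.8 CPM in OcKO, against 309, 187 and 141 CPM in Control (log2 fold change -1.33, standard error 0.31, adjusted p = 0.141 by edgeR). Of 13 tested elongation and termination genes, 2 were lower and 0 higher (15.4%, against the same 11.1%). Eef2k, the kinase that inhibits elongation factor eEF2, stood at 376, 434 and 418 CPM in OcKO, against 709, 683 and 761 CPM in Control. Its libraries did not overlap and were close within each group (log2 fold change -0.81, standard error 0.15, adjusted p = 0.120 by edgeR).

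Of 15 genes of cap kinases and the mTORC1 arm, which governs the 4E-BP proteins, 1 was lower and 0 higher at an unadjusted p under 0.05 (6.67%, against 11.1% of all tested genes). This was Deptor, an inhibitor of mTOR, at 107, 155 and 91.9 CPM in OcKO, against 307, 227 and 230 CPM in Control (log2 fold change -1.11, standard error 0.25, adjusted p = 0.131 by edgeR). Of 11 tested genes of the eIF2 alpha kinases and their phosphatase, 0 passed an unadjusted p of 0.05. The smallest p belonged to Eif2ak4, the kinase GCN2, at 77.3, 108 and 77.8 CPM in OcKO, against 155, 109 and 105 CPM in Control (log2 fold change -0.49, standard error 0.24, adjusted p = 0.523 by edgeR).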

How the data were processed

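RNA was sequenced from GV oocytes of 3 OcKO and 3 Control mice, 1 library per mouse by the titles, with a kit for single cells and low input. The authors deposited raw counts of reads per gene, as a table of the series and as files per sample with exon positions and lengths; both held the same values. Trimmomatic 0.36, STAR 2.5.2b with GRCm38, and featureCounts from Subread 1.5.2 are named in the submitters' processing notes. Annotation release, strand setting and treatment of multi-mapping reads are not stated, so reads of overlapping genes and copies cannot be told apart.

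All genes were fitted with edgeR 4.0.16 (R 4.3.3; glmQLFit and glmQLFTest, TMM, filterByExpr, 16060 genes tested), with Benjamini-Hochberg adjustment over all of them and calls under 0.05. Standard errors were derived from each log2 fold change and its F statistic. Positive values are higher in OcKO. DESeq2 1.42.0 and limma 3.58.1 (voom), other scalings and filters, a replicate block and leaving out each library were alternatives. DESeq2 was run without the filter on low counts. Members and gene lists were chosen with earlier results of these data known. Genes named with values in each library were Eif4e and its paralogues, eIF2 subunits, Eif5, Eif6, and in each role group the 2 smallest p and the highest level per length. In the other lists it was the smallest p. Further members were added after their values were seen. Of the 12 genes listed for eIF2 alpha kinases, 11 were found by symbol. All 51 members were found in GENCODE M21 by ID, 40 with the same start and end. Shared sequence is the share of a member's 50-base stretches that occur in GENCODE M21 transcripts of other genes. The scripts were tested on simulated counts. Counting limits cover counting error only.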

Additional observations from a re-analysis of the deposited data

How the results depend on the processing

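Across all tested genes edgeR called 23, and this count was 1156 with DESeq2, 1 with limma voom, 68 with a minimum of 5 CPM in 3 libraries, 0 with a replicate block and 0 to 5 without 1 library. The count of called members was 0 in each of these except DESeq2, which called 6; at an unadjusted p under 0.05 members numbered 7, and 11 with DESeq2, 9 with limma voom and 5 to 10 without 1 library. With the replicate block 4 members were higher and 3 lower at an unadjusted p under 0.05. The share of all tested genes at that cut is given only for the main edgeR fit (11.1%). The member counts of the alternatives therefore have no background beside them and cannot be read as a result about the members. Same-numbered libraries of the 2 groups did not deviate together (correlation across genes of -0.04 for each of the 3 numbers). This cannot show whether same-numbered mice were paired, which the titles do not state.

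The median log2 fold change of the eIF2 and eIF2B genes, 0.13, was 0.29 with library size alone and 0.03 to 0.25 without 1 library. That of the eIF4 genes, 0.12, was 0.27 with library size alone, 0.02 with the 5 CPM minimum and -0.13 to 0.33 without 1 library. That of the eIF3 genes, 0.26, was 0.22 to 0.38 without 1 library and 0.42 with library size alone. The log2 difference of the Eif4e1b to Eif4e ratio was -0.92 to -0.21 without 1 library. For 27 named genes under 13 alternatives, 9 of 348 log2 fold changes changed sign. Eif4e was -0.14 to 0.30 without 1 library. Eif2s1 was 0 with limma voom, -0.01 with the replicate block and -0.27 to 0.23 without 1 library, Eif2s2 -0.25 to 0.26 without 1 library, and Eif4g2 0.04 with library size alone and -0.27 to 0.08 without 1 library. The cause of these shifts was not tested. With 3 libraries a group, the median standard error of a member's log2 fold change was 0.24.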
